A study of Mus musculus with 9 samples.

Results

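The meiotic prophase and recombination genes are 37 genes chosen by name, which encode the synaptonemal complex, the chromosome axis, the meiotic cohesins, the machinery of DNA breakage and repair, and factors of meiotic entry. The rule of choice used no measured value, but the list was made with earlier results of these data known. In the count table of 53801 gene rows, 38 rows carried these 37 symbols, because the symbol Spata22 stood on 2 rows, and 37 of the 38 rows passed the filter on low counts. The mRNA was measured by RNA-seq in cultured mouse spermatogonial stem cells (SSCs), the stem cells of the male germ line, in 9 libraries from 3 groups of 3. All cells came from Prmt5 flox/flox; Rosa26-CreERT2 mice and had been given 4-hydroxytamoxifen (4OHT) at 1 µM, which activates a Cre recombinase expressed from a ubiquitously active locus and so, by the study's account, deletes Prmt5. No construct is named for the 4OHT group, and whether it received a control virus is not given in the sources used here. The groups labelled MU and OE were read as the same cells overexpressing the catalytically dead PRMT5 (E444Q) and wild-type PRMT5 (WT). The labels name 1 SSC line, and nothing says that the libraries of a group came from separate cultures, so p-values measure the spread between these libraries, which may be technical. No library without 4OHT was analysed here, so the comparisons do not measure the loss of PRMT5. They set cells given a PRMT5 construct, by the study's account through lentivirus, beside cells of the 4OHT group. Effects of the construct, of the virus and of the handling cannot be told apart.

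During meiotic prophase, homologous chromosomes pair along protein axes built on meiosis-specific cohesins and are zipped together by the synaptonemal complex. SPO11 and its partners cut the DNA, and the recombinase DMC1 with its cofactors invades the homolog, after which a group of proteins that includes MSH4, MSH5 and TEX11 turns some of the joints into crossovers. Spermatogonia do not undergo these events, but many of the genes are already transcribed at low levels before meiosis. PRMT5 is a methyltransferase that places symmetric dimethyl marks on arginines of histones and splicing proteins. In germ cells and embryonic cells, many meiotic genes are repressed by a Polycomb complex called PRC1.6, whose MAX, MGA and E2F6 subunits recognise E-box and E2F sequences in their promoters.

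Promoters are shown for 6 of the genes, which are 4 with an E-box and some of the largest changes, Sycp2 with a large change and no E-box, and Msh4 with no called change. Each is the 250 bases before the RefSeq start site, written 5′ to 3′ on the strand of the gene, and the build is GRCm38. Capitals mark CACGTG (the E-box), GGCGGGA (the E2F sequence) and CNCCTCAG (the sequence bound by STRA8 and MEIOSIN, the inducers of meiosis), each searched on both strands, so that a match may be printed as its reverse complement. For Sycp2, Sycp3, Tex12 and Msh4 the RefSeq start lies inside the GENCODE gene, so that part of the window, or for Msh4 all of it, is in the annotated gene.
Sycp1 (chr3:102936101-102936350, minus strand): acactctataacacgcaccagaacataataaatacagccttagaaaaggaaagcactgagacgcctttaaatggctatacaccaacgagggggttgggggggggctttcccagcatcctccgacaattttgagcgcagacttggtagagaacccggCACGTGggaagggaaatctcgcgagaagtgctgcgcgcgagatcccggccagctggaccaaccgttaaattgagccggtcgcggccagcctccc
Sycp3 (chr10:88459337-88459586, plus strand): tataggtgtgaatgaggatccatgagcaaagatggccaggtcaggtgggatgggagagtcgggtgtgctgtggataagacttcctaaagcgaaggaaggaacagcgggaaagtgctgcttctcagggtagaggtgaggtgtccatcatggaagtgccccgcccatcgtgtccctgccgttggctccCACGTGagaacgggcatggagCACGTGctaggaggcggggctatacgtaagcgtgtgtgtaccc
Tex12 (chr9:50561269-50561518, minus strand): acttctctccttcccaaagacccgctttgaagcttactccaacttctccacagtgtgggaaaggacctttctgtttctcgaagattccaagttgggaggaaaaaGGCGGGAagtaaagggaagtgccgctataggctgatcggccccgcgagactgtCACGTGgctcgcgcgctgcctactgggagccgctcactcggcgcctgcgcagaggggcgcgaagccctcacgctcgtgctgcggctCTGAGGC
Hormad1 (chr3:95559427-95559676, plus strand): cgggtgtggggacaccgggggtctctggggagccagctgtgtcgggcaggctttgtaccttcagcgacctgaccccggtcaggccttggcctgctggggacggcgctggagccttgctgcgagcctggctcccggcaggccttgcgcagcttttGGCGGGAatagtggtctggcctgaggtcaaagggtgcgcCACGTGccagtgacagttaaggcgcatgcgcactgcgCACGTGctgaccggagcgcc
Sycp2 (chr2:178407659-178407908, minus strand): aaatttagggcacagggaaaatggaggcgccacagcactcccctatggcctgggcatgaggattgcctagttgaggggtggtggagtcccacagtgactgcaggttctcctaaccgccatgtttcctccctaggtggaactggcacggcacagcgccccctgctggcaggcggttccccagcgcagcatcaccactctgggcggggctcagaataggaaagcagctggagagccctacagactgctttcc
Msh4 (chr3:153904892-153905141, minus strand): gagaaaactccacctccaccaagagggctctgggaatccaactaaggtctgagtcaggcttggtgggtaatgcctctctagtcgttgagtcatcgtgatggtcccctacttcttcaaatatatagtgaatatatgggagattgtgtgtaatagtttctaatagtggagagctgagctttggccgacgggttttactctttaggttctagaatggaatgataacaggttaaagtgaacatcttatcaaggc

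RefSeq promoters, taken as 300 bases from 250 before to 50 after the start site, were matched for 31 of the 37 symbols, with 36 promoters in all. The E-box was present for 9 of the 31 genes (29.0%), counting a gene if any of its promoters matched. Per promoter it was in 27.8% of the 36, against 7.15% of all 32851 promoters in the table. The 9 genes were Sycp1, Sycp3, Syce2, Tex12, Hormad1, Stag3, Rec114, Rnf212 and Brdt. The E2F sequence was present for 11 genes (35.5%) and in 36.1% of the 36 promoters, against 11.34% of all promoters. The STRA8 sequence was present for 7 genes (22.6%) and in 19.4% of the 36 promoters, against 7.94% of all promoters. The promoters of the meiotic genes had a median GC content of 60.7%, against 52.7% over all promoters, and the part of GC content in these shares was not tested. Promoters of Majin, Meiob, Spo11, Terb2, Tex11 and Ythdc2 were not analysed here.

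Libraries held between 78751996 and 365719548 counts, of which a read pair made up about 4, and values are given as CPM (counts scaled to the same total) after scaling by the trimmed mean of M-values (TMM) over all genes. Prmt5, the targeted gene, stood at 30.3 ± 1.92 CPM (mean ± SD, n = 3) in 4OHT, 146 ± 0.957 CPM in MU and 1076 ± 7.61 CPM in OE, with the lowest level in 4OHT, and the log2 fold change of MU against OE was -2.88. The MU libraries were the deepest, at 192033300 counts or more against at most 154557863. Among replicates, 4OHT-3 stood farthest from its group, and without it 29 of 32 calls in OE against 4OHT and 32 of 33 in MU against 4OHT were kept. Marker genes of the cell types in the cultures differed between the groups. The summed level of 8 germ cell genes was 1315 to 1403 CPM in 4OHT, 2322 to 2416 CPM in MU and 2547 to 2569 CPM in OE. Markers of feeder fibroblasts, the cells on which SSCs grow, summed to 5220 to 6082, 3608 to 3629 and 2730 to 2812 CPM in the same order. Macrophage markers summed to 175.3 to 193.5, 1164 to 1197 and 2246 to 2374 CPM, with 11 of 13 rows higher in OE and in MU than in 4OHT, and Lyz2 giving most of the sum, while Cx3cr1 stayed at or below 0.22 CPM on average in every group. Sertoli cell markers summed to between 19.5 and 29.1 CPM in every library. The part of these cells in the results was not tested. In bulk RNA, more germ cells and more RNA of a gene per cell cannot be told apart. A second scaling was therefore used beside TMM, in which the geometric mean of Ddx4, Dazl, Mael, Dnd1, Sall4, Stk31, Tex19.1 and Gtsf1 is equal in all libraries. These 8 genes did not move together, with log2 fold changes from -0.068 to 1.5 in OE against 4OHT under TMM. Under germ cell scaling 3 of the 8 were still called higher in OE and 1 lower, with Stk31 at 0.62 and Tex19.1 at -0.95. Smaller values under this scaling may depend on the choice of the 8 genes, which was not tested. Under this germ cell scaling the median log2 fold change of all genes moved to -0.86 in OE against 4OHT and to -0.75 in MU against 4OHT, from 0.018 and 0.044 under TMM, and the direction of a meiotic gene is stated for both scalings.

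Against 4OHT, OE held more mRNA of most of the meiotic genes under TMM, and under germ cell scaling only part of them stayed higher. In edgeR's quasi-likelihood test with Benjamini-Hochberg adjustment over 22452 genes, 31 of the 37 tested genes were higher in OE under TMM and 1, Spo11, was lower, whereas 12 were higher and 18 lower under germ cell scaling. Over all genes tested, 29.9% were higher and 27.8% lower under TMM, and 6.1% were higher and 67.1% lower under germ cell scaling. A rise of at least 2-fold under TMM was found for 12 of the 37, against 9.42% of all genes. The median log2 fold change of the 37 was 0.62 under TMM and -0.26 under germ cell scaling, beside 0.018 and -0.86 over all genes.

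MU was compared with the same 4OHT libraries, so the results against 4OHT are not independent of each other. Under TMM 32 of the 37 were higher in MU and Spo11 was lower, and under germ cell scaling 13 were higher and 12 lower. Of all genes, 29.5% were higher and 26.5% lower under TMM, and 6.57% were higher and 62.6% lower under germ cell scaling. A rise of at least 2-fold under TMM was found for 11 of the 37, against 9.32% of all genes. The median log2 fold change of the 37 was 0.66 under TMM and -0.13 under germ cell scaling. The sum over the 37 genes was 927 to 991.2 CPM in 4OHT, 1846 to 1902 CPM in MU and 1913 to 1955 CPM in OE, without overlap between 4OHT and either of the others.

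**Figure D1:**
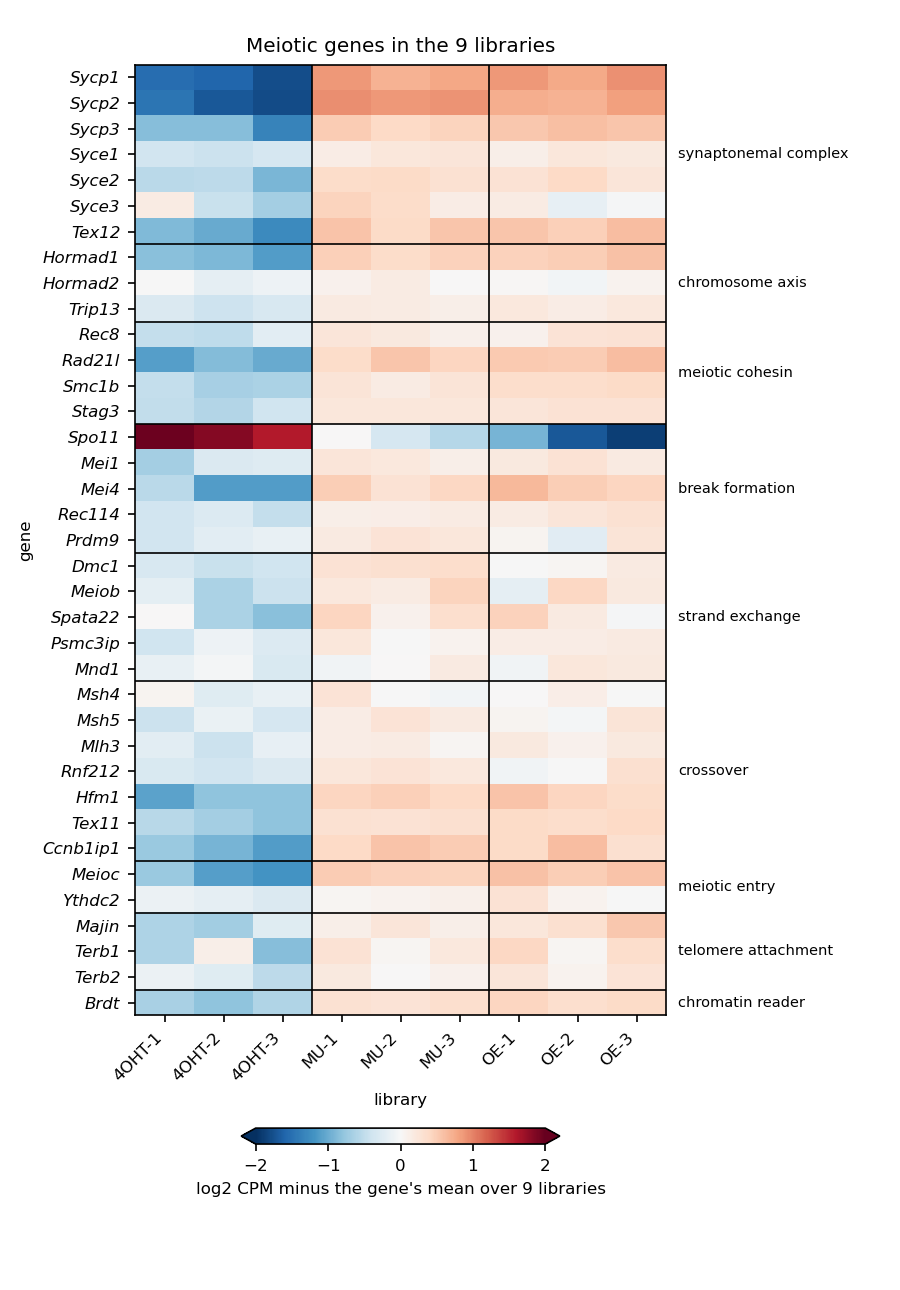
Heat map of the 37 tested meiotic genes (rows, grouped by role) in the 9 libraries (columns), coloured by log2 CPM under TMM minus the gene's mean over the 9 libraries, with the colours limited to 2 either way. The 4OHT libraries are below the others for most rows under TMM, the synaptonemal complex genes Sycp1 and Sycp2 most plainly, and Spo11 runs the other way. Under germ cell scaling 23 of the 37 genes lie below 4OHT in OE and in MU.

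Among the 7 genes of the synaptonemal complex, the zipper between paired chromosomes, 6 were higher in OE and 7 in MU under TMM, and 4 and 5 were also higher under germ cell scaling. Sycp1, the transverse filament of the complex (GRCm38 chr3:102818499-102936100), stood at 33.1, 31.9 and 27.9 CPM in 4OHT, 173, 154 and 164 CPM in MU and 174, 161 and 180.5 CPM in OE. The lowest MU and OE libraries lay far above the highest 4OHT library. The log2 fold change was 2.47 ± 0.071 (SE) in OE against 4OHT (adjusted p = 1.38e-13) and 2.40 ± 0.07 in MU (adjusted p = 2.62e-13), and under germ cell scaling it was 1.597 and 1.61.

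Sycp2 encodes a lateral element protein (chr2:178345293-178407685) and stood at 25.6, 21.6 and 20.4 CPM in 4OHT, 134, 128 and 131 CPM in MU and 116, 114 and 125 CPM in OE. It rose by 2.39 ± 0.072 (log2) in OE and by 2.54 ± 0.073 in MU, or by 1.52 and 1.75 under germ cell scaling. As shown above, its promoter window holds none of the 3 sequences, while those of Sycp1, Sycp3 and Tex12 hold at least 1. Sycp3, the other lateral element protein (chr10:88459569-88473236), stood at 39.3, 39.5 and 28.1 CPM in 4OHT, 102, 93.9 and 97.4 CPM in MU and 104, 108 and 104 CPM in OE, with the third 4OHT library the lowest. Its log2 fold change was 1.56 ± 0.10 in OE and 1.46 ± 0.10 in MU, and 0.69 and 0.67 under germ cell scaling. Of its exonic bases 52.2% overlap Chpt1 on the opposite strand, and whether the libraries kept the strand is not given in the sources used here, so reads of the pair cannot be told apart.

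Tex12, of the central element, stood at 12.3, 11.2 and 9.4 CPM in 4OHT, 33.8, 29.4 and 33.1 CPM in MU and 33.3, 31.4 and 34.6 CPM in OE, with log2 fold changes of 1.59 ± 0.093 and 1.55 ± 0.092 that were 0.72 and 0.76 under germ cell scaling. The central element genes Syce2 and Syce1 had smaller fold changes. Syce2 went from 45.8 ± 6.72 CPM to 89.1 ± 5.04 CPM in OE and 91.8 ± 2.84 CPM in MU, a rise that under germ cell scaling was 0.084 and not called in OE, and 0.22 and called in MU. Syce1 went from 28.4 ± 0.925 CPM to 42.1 ± 1.61 and 42.8 ± 1.37 CPM, a rise that turned to -0.31 and -0.20 (log2) under germ cell scaling. Syce3 overlapped between groups in both comparisons and passed the test in MU (0.59 ± 0.18, adjusted p = 0.0109) but not in OE (0.28 ± 0.18, adjusted p = 0.206), with -0.19 and -0.59 under germ cell scaling.

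Of the 3 chromosome axis genes, 2 were higher in OE and in MU under TMM and 1 under germ cell scaling. Hormad1, an axis protein removed on synapsis (chr3:95559677-95587671), stood at 13, 12.4 and 10.6 CPM in 4OHT, 32.2, 29.7 and 31.8 CPM in MU and 31.9, 32.3 and 34.8 CPM in OE. The log2 fold change was 1.46 ± 0.08 in OE and 1.38 ± 0.079 in MU, and it stayed higher under germ cell scaling (0.59 and 0.59). The study chose Hormad1 and Rec8 for a panel from these samples, so their direction is not independent evidence. Hormad2, its close relative, stood at 13.1 ± 0.759 CPM in 4OHT, 14.9 ± 0.787 CPM in MU and 14.2 ± 0.556 CPM in OE, with log2 fold changes of 0.11 ± 0.082 (adjusted p = 0.279) and 0.18 ± 0.081 (adjusted p = 0.0703) that were not called under TMM. Under germ cell scaling Hormad2 was lower in both, at -0.77 and -0.61. Trip13, the ATPase that removes HORMAD proteins from the axis, rose from 44.9 ± 2.1 CPM to 64.7 ± 1.65 CPM in OE and 63.3 ± 1.28 CPM in MU under TMM and fell under germ cell scaling (-0.35 and -0.29).

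All 4 meiotic cohesin genes were higher in OE and in MU under TMM, and under germ cell scaling Rad21l alone was called higher. Rad21l, a kleisin subunit that closes the cohesin ring (chr2:151645404-151668533), stood at 6.14, 7.21 and 6.57 CPM in 4OHT, 17, 19.3 and 17.9 CPM in MU and 18.9, 18.7 and 20.2 CPM in OE. Its log2 fold change was 1.54 ± 0.088 in OE and 1.44 ± 0.088 in MU, and 0.66 and 0.65 under germ cell scaling. Rec8, the other meiotic kleisin, went from 16.5 ± 1.89 CPM to 25.2 ± 1.9 CPM in OE and 24.5 ± 1.11 CPM in MU, and under germ cell scaling its log2 fold change was -0.27 in OE, called lower, and -0.22 in MU, not called. Smc1b, a core subunit, went from 115 ± 7.78 CPM to 222 ± 1.77 CPM in OE and 202 ± 7.03 CPM in MU, with 0.073 and 0.025 under germ cell scaling, neither called. Stag3, the meiotic subunit that binds the ring, had the highest CPM of the 37 in every group. It went from 257 ± 17.7 CPM to 436 ± 8.13 CPM in OE and 422 ± 1.27 CPM in MU, and under germ cell scaling its log2 fold change was -0.12 in OE and -0.078 in MU, neither called.

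Spo11, the enzyme that makes the programmed DNA breaks of meiosis (chr2:172977700-172993576, plus strand), was the 1 meiotic gene that was lower in OE and in MU under both scalings. It stood at 2.56, 2.35 and 1.98 CPM in 4OHT, 0.663, 0.523 and 0.442 CPM in MU and 0.345, 0.203 and 0.179 CPM in OE, which came from 194, 197 and 177 counts, 131, 198 and 105 counts, and 28, 19 and 28 counts. No library of 1 group reached into the range of another. The log2 fold change was -3.27 ± 0.32 in OE (adjusted p = 2.38e-07) and -2.08 ± 0.29 in MU (adjusted p = 1.35e-05), and -4.15 and -2.87 under germ cell scaling. At about 4 counts a read pair the OE values rest on a few read pairs a library, above the 12 counts taken as the floor.

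The partners of SPO11 were higher under TMM. Mei4, needed for the breaks, stood at 5.13, 3.43 and 3.41 CPM in 4OHT, 10.4, 9.02 and 9.89 CPM in MU and 11.7, 10.4 and 9.99 CPM in OE, with log2 fold changes of 1.42 ± 0.15 and 1.29 ± 0.14, and 0.55 and 0.51 under germ cell scaling. Rec114, which binds MEI4, went from 18.8 ± 1.35 CPM to 28.8 ± 1.37 CPM in OE and 26.8 ± 0.449 CPM in MU, and turned lower under germ cell scaling (-0.27 and -0.28). Nptn on the opposite strand covers 26.9% of its exonic bases. Mei1 went from 13.7 ± 2.14 CPM to 21.1 ± 0.858 and 20.7 ± 0.874 CPM and was at -0.26 and -0.20 (log2) under germ cell scaling. Prdm9, the methyltransferase that places the breaks, stood at 3.49 ± 0.282 CPM in 4OHT, 4.85 ± 0.154 CPM in MU and 4.26 ± 0.707 CPM in OE. It was called higher in MU (adjusted p = 0.0104) and not in OE (adjusted p = 0.103) under TMM, and its values were -0.32 and -0.59 under germ cell scaling.

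The strand exchange genes had no rise of 2-fold under TMM, and none was called higher under germ cell scaling. Dmc1, the meiotic recombinase, went from 11.4 ± 0.48 CPM in 4OHT to 18.7 ± 0.392 CPM in MU and 15.7 ± 1.1 CPM in OE, a rise of 0.71 ± 0.079 and 0.46 ± 0.079 on the log2 scale that became -0.082 and -0.42 under germ cell scaling. Psmc3ip and Mnd1 encode the 2 parts of the HOP2-MND1 cofactor of DMC1. Psmc3ip went from 11.6 ± 1.18 CPM to 15.3 ± 0.247 CPM in OE and 14.8 ± 1.26 CPM in MU, and turned to -0.47 and -0.44 under germ cell scaling, with 21.2% of its exonic bases shared with Mlx on the opposite strand. Mnd1 stood at 6.37 ± 0.607 CPM, 7.78 ± 0.845 CPM and 7.33 ± 0.657 CPM in 4OHT, OE and MU, was not called under TMM (adjusted p = 0.0528 and 0.171) and was lower under germ cell scaling (-0.59 and -0.59). Meiob, a single-strand DNA binding protein, went from 1.47 ± 0.223 CPM to 2.19 ± 0.445 and 2.37 ± 0.245 CPM in OE and MU, and its partner Spata22 from 2.27 ± 0.732 CPM to 3.58 ± 0.618 and 3.77 ± 0.455 CPM, both called higher under TMM and at -0.30 and -0.21 in OE under germ cell scaling. The second row with the symbol Spata22 was not tested. It shares 1025 exonic bases with the first and held 0, 0 and 0 counts in 4OHT, 20, 35 and 13 in MU and 0, 0 and 145 in OE.

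Among the 7 crossover genes, 6 were higher in OE and in MU under TMM, and 3 of the 7 were higher under germ cell scaling. Those 3 were Hfm1, a helicase, Ccnb1ip1, a ubiquitin ligase that limits crossover sites, and the X-linked Tex11, a scaffold of the crossover group. Ccnb1ip1 stood at 7.2, 6.36 and 5.6 CPM in 4OHT, 15.9, 17.9 and 17.2 CPM in MU and 15.7, 18.6 and 15.1 CPM in OE, with log2 fold changes of 1.37 ± 0.11 and 1.42 ± 0.11, and 0.49 and 0.63 under germ cell scaling. Hfm1 went from 6.48 ± 0.644 CPM to 16.5 ± 1.17 and 16.2 ± 0.464 CPM in OE and MU, and Tex11 from 85 ± 7.45 CPM to 176 ± 1.96 and 167 ± 2 CPM, with germ cell scaled values of 0.46 and 0.53 for Hfm1 and 0.17 and 0.19 for Tex11. Msh4 stood at 5.86 ± 0.62 CPM, 6.52 ± 0.367 CPM and 6.64 ± 0.832 CPM in 4OHT, OE and MU, with no call under TMM (adjusted p = 0.312 and 0.234) and -0.72 and -0.61, both called lower, under germ cell scaling. Its partner Msh5 went from 6.08 ± 0.663 CPM to 7.97 ± 0.848 and 8.55 ± 0.424 CPM and became -0.49 and -0.30 (log2) under germ cell scaling. Mlh3, which acts in resolving crossovers, went from 24.1 ± 2.27 CPM to 32.3 ± 1.37 and 31.4 ± 1.49 CPM, and Rnf212, a SUMO ligase, from 4.05 ± 0.137 CPM to 5.42 ± 0.816 and 6.01 ± 0.14 CPM, and both turned negative under germ cell scaling (-0.46 and -0.41, -0.45 and -0.22).

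Of the meiotic entry genes, Meioc stood at 18.7, 14.7 and 13.7 CPM in 4OHT, 44.7, 43.2 and 42.7 CPM in MU and 47.4, 44 and 46.6 CPM in OE. Its log2 fold change was 1.55 ± 0.092 in OE and 1.47 ± 0.091 in MU, and 0.68 and 0.69 under germ cell scaling. Ythdc2, the RNA helicase that MEIOC binds, went from 25.3 ± 1.5 CPM to 31.5 ± 3.51 and 30.3 ± 0.76 CPM in OE and MU and turned to -0.56 and -0.53 under germ cell scaling, so the partners differed in direction there. The 3 genes that tether telomeres to the nuclear envelope were low. Majin went from 1.85 ± 0.321 CPM to 3.4 ± 0.394 and 2.94 ± 0.148 CPM, Terb1 from 1.46 ± 0.542 CPM to 2.33 ± 0.311 and 2.17 ± 0.186 CPM, and Terb2 from 6.04 ± 0.844 CPM to 8.42 ± 0.612 and 7.86 ± 0.525 CPM. All 3 were called higher in OE under TMM and Terb1 was not in MU (adjusted p = 0.0517), and under germ cell scaling all 3 were negative, from -0.0041 to -0.41. Terb2 alone was called lower there, in OE and in MU, and Majin and Terb1 were not called. Brdt, a bromodomain reader of acetylated histones active in spermatocytes, went from 39.4 ± 2.93 CPM to 82.6 ± 2.44 and 78.4 ± 1.42 CPM and stayed higher under germ cell scaling (0.19 and 0.20).

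**Figure D2:**
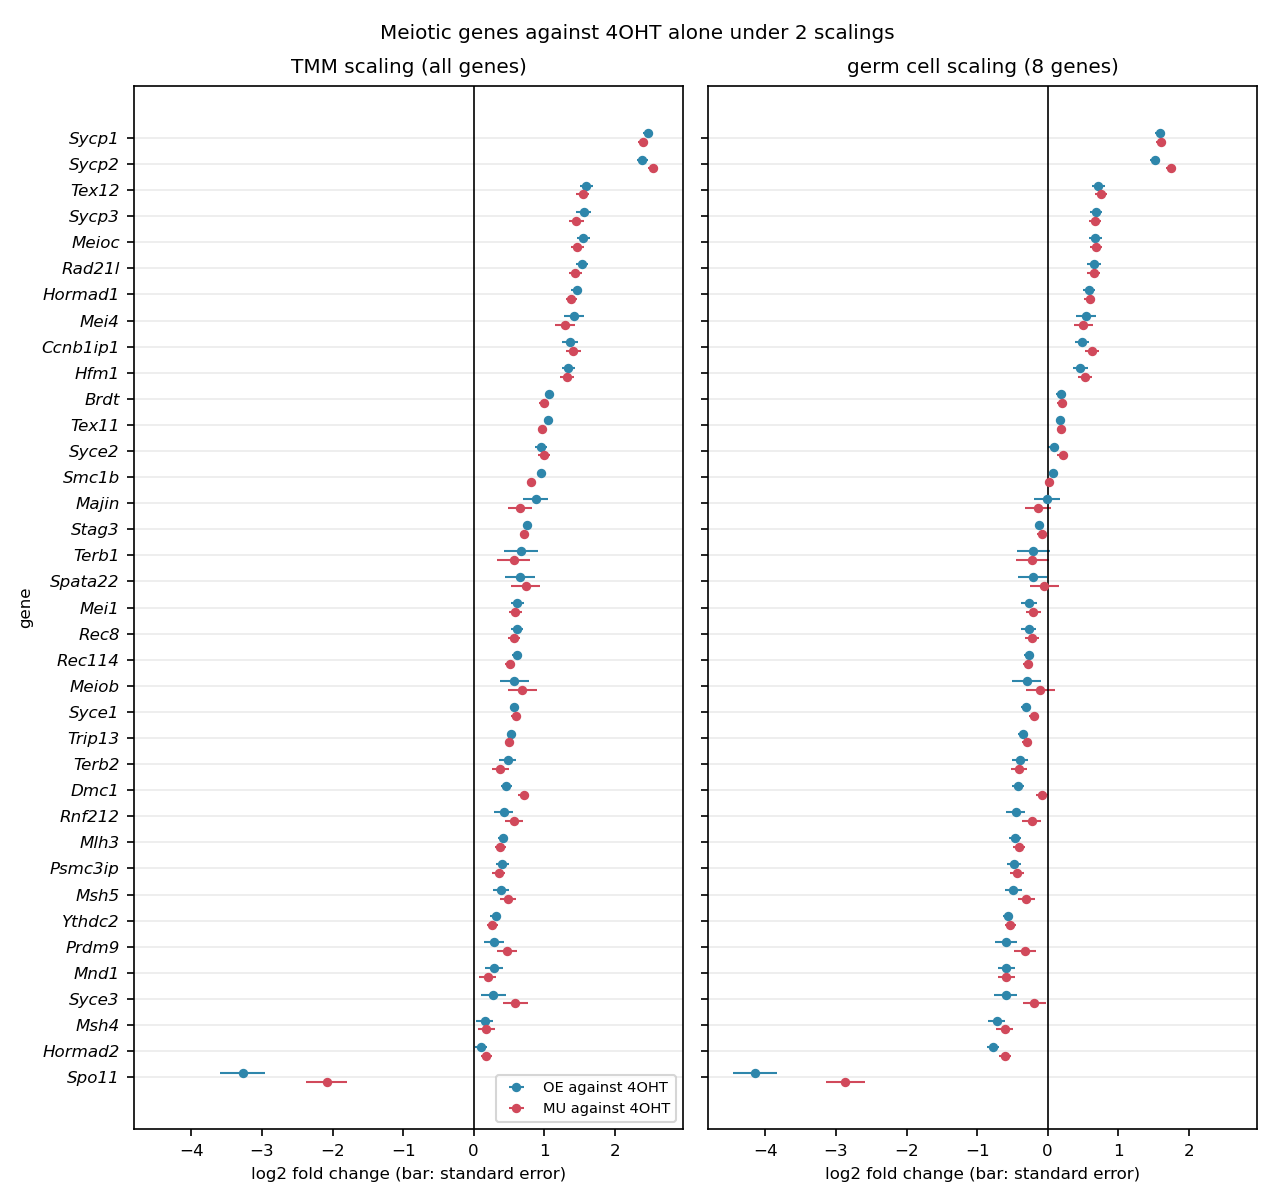
Log2 fold change (points) with its standard error (bars) of the 37 meiotic genes in OE (blue) and MU (red) against 4OHT, under TMM on the left and germ cell scaling on the right, with genes ordered by the OE value. Under TMM 36 of the 37 points of each comparison are above 0, and under germ cell scaling 14 are, with Sycp1 and Sycp2 highest and Spo11 lowest under both.

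**Figure D3:**
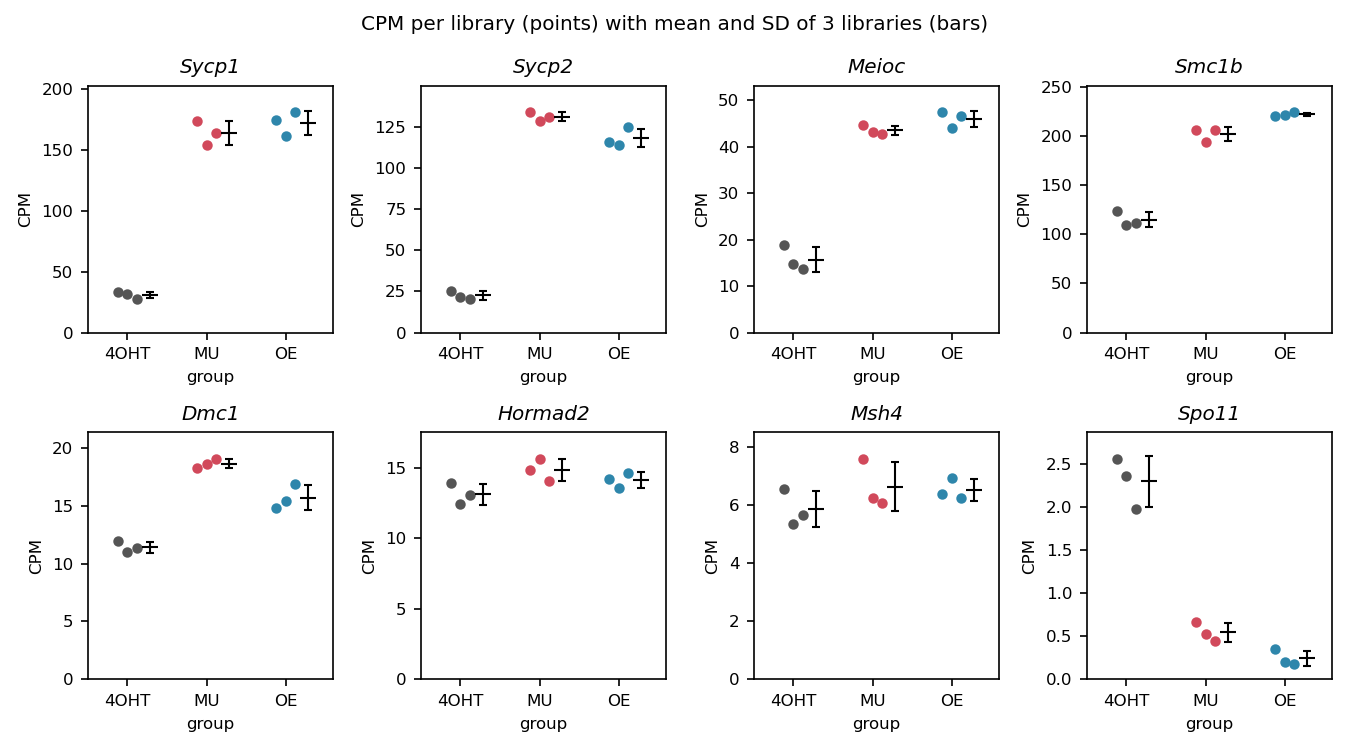
CPM under TMM (vertical axis, from 0) in each library of 4OHT, MU and OE for 8 meiotic genes, with points for libraries and bars for the mean and SD of 3. Sycp1, Sycp2, Meioc, Smc1b and Dmc1 are higher in MU and OE without overlap, Hormad2 and Msh4 lie close together, and Spo11 falls from 2.30 CPM in 4OHT to 0.54 in MU and 0.24 in OE. Under germ cell scaling Dmc1 is negative in both comparisons and Hormad2 and Msh4 are lower.

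Between MU and OE, 1 of the 37 genes passed the test. Spo11 was called, at 0.542 CPM in MU against 0.242 CPM in OE, a log2 fold change of 1.19 ± 0.31 with adjusted p = 0.0484 in edgeR, and no other gene of the 37 was called. Over all genes, 2.22% were higher and 1.1% lower in MU. The Spo11 call sits at the threshold, and its adjusted p ranged from 0.00929 to 0.211 over the alternatives, with 11 of 17 above 0.05, among them the fits without MU-1, MU-2 or MU-3 (0.211, 0.127 and 0.0671), without OE-2 or OE-3 (0.171 and 0.207) and without 4OHT-1 or 4OHT-2 (0.0582 and 0.0816). The log2 fold change stayed positive, from 0.99 to 1.51. Without adjustment 4 of the 37 had p under 0.05 in edgeR, a share close to that of all genes, where 2813 of 22452 had. The 4 were Spo11, Dmc1 (0.25 ± 0.077), Smc1b (-0.14 ± 0.052) and Sycp2 (0.15 ± 0.067), with adjusted p of 0.118, 0.258 and 0.376 for the last 3. The libraries did not overlap for 3 genes higher in MU (Sycp2, Spo11 and Dmc1) and 6 lower in MU (Sycp3, Smc1b, Stag3, Rec114, Tex11 and Brdt), where 13% of all genes were higher and 12.8% lower without overlap. The median log2 fold change was -0.040 over the 37 and 0.008 over all genes under TMM, and 0.048 and 0.096 under germ cell scaling, where Dmc1 was called too (0.33). Of the 12 feeder fibroblast genes 12 were higher in MU than in OE, and of the 13 macrophage rows 9 were lower, and their part in these differences was not tested.

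**Figure D4:**
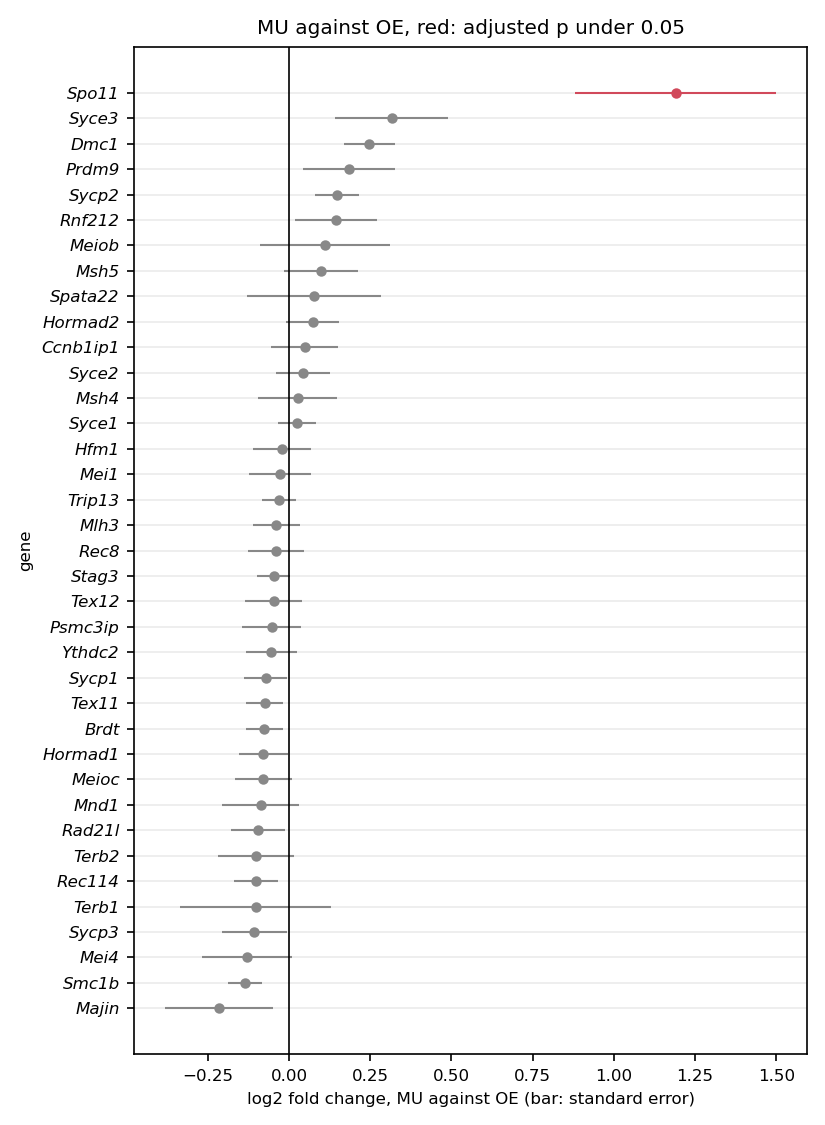
Log2 fold change (points) with its standard error (bars) of the 37 meiotic genes in MU against OE under TMM, ordered by value, with red for adjusted p under 0.05 and grey for the others. Spo11 at 1.19 is the 1 red point, and the others lie between -0.215 and 0.316. Under germ cell scaling 28 of the 37 are above 0, in place of 14.

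Ratios of a meiotic cohesin gene to its general paralog in the same library do not depend on the scaling, though the paralogs are also expressed by the feeder and other cells of the culture. The ratios were taken per exonic base, and with 3 libraries against 3 a two-sided exact permutation test cannot go below p = 0.1. Smc1b to Smc1a was 1.64 ± 0.18 (SD, n = 3) in 4OHT, 3.1 ± 0.096 in MU and 3.01 ± 0.12 in OE, and Rad21l to Rad21 was 0.0419 ± 0.0042, 0.0956 ± 0.0084 and 0.0925 ± 0.0067. Stag3 to Stag2 was 3.83 ± 0.38, 5.29 ± 0.13 and 5.29 ± 0.39. All 3 ratios were higher without overlap in MU and OE than in 4OHT (exact p = 0.1 each). Rec8 to Rad21 was 0.0586 ± 0.0055 in 4OHT, 0.0734 ± 0.0042 in MU and 0.0684 ± 0.0079 in OE, higher without overlap in MU and overlapping in OE. These 12 comparisons are part of a larger number of ratio comparisons made, of which the others are not reported here, and the smallest exact p adjusted over the 12 was 0.171. Over 10 general paralogs and partners of meiotic genes, 6 were higher and none lower in OE and in MU under TMM. Their median log2 fold changes were 0.24 and 0.22. Under germ cell scaling all 10 were lower in each, where 67.1% of all genes were lower in OE and 62.6% in MU. The medians of the 10 were then -0.64 and -0.57, beside -0.86 and -0.75 over all genes.

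**Figure D5:**
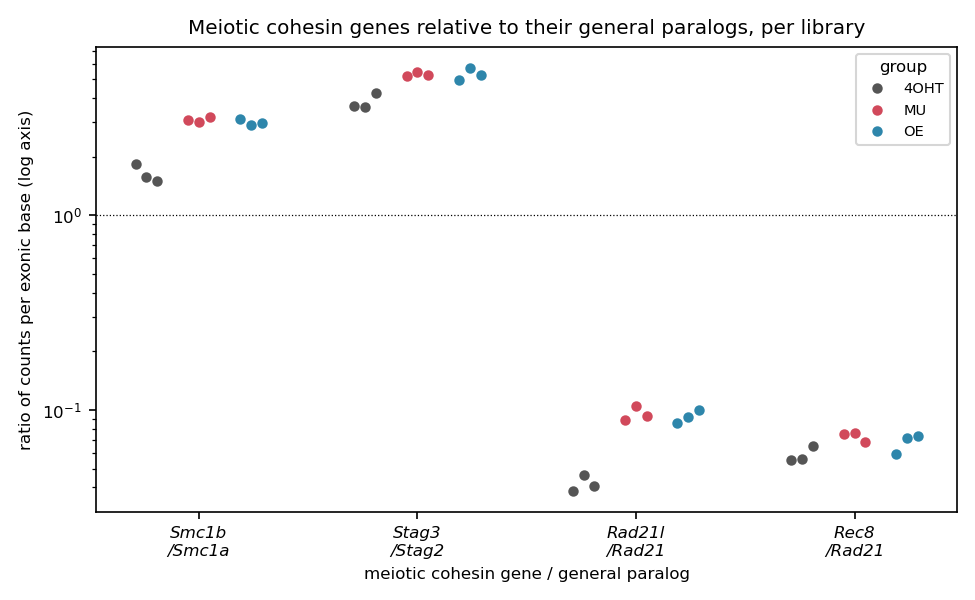
Ratio of counts per exonic base of a meiotic cohesin gene to a general paralog (vertical axis, log scale) in each library of 4OHT (grey), MU (red) and OE (blue), with a dotted line at 1. The Smc1b, Stag3 and Rad21l ratios are higher in MU and OE than in 4OHT without overlap, the Rec8 ratios of OE overlap those of 4OHT, and no scaling enters a ratio.

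Levels between genes were compared as counts per exonic base, scaled to the same sum in every library. In 4OHT the order began with Stag3 at 157.5 ± 15 (SD, n = 3), Smc1b at 99.4 ± 5.78 and Sycp3 at 98.5 ± 15.5, and Smc1b and Sycp3 did not differ beyond their spread. In OE it began with Sycp3 at 303.7 ± 4.24, Stag3 at 277.6 ± 3.48 and Smc1b at 200.0 ± 1.58, and in MU with Sycp3 at 285.5 ± 9.52 and Stag3 at 272.2 ± 1.81. Because Sycp3 shares 52.2% of its exonic bases with Chpt1 on the opposite strand, its level and rank may include reads of Chpt1. Sycp1 went from rank 11 in 4OHT (30.5 ± 1.8) to rank 5 in OE (176.4 ± 10.9), and Sycp2 from rank 20 to rank 10. At the low end were Terb1 at 1.36 ± 0.485 in 4OHT and Spo11 at 0.226 ± 0.085 in OE. Between libraries of a group the coefficient of variation of CPM had a median over the 37 of 10.2% in 4OHT, 4.53% in MU and 5.66% in OE.

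Other meiotic genes that are no part of the 37 were described in the same way. Of 25 tested, 22 were higher and 1 lower in OE, and 23 were higher and none lower in MU, under TMM, with median log2 fold changes of 0.83 and 0.88. Under germ cell scaling 7 were higher and 8 lower in OE, and 8 and 7 in MU. Stra8, which induces meiosis on retinoic acid, went from 10.1 ± 0.941 CPM to 35.8 ± 0.901 CPM in OE and 35.8 ± 2.37 CPM in MU, and its partner Meiosin from 3.97 ± 0.555 CPM to 7.06 ± 0.655 and 8.35 ± 0.351 CPM, with germ cell scaled log2 fold changes of 0.94 and 1.03 for Stra8 and -0.054 and 0.28 for Meiosin. Six6os1, a central element gene, rose by 1.36 and 1.43 (log2) under TMM and was at 0.48 and 0.64 under germ cell scaling. Spo16, of the crossover group, was lower in OE at -0.82 and not called in MU under TMM, and stood at -1.70 and -1.02 under germ cell scaling. Mael, 1 of the 25, also sets the germ cell scaling. Of the genes of later spermatocytes and spermatids, 7 of 11 tested were higher and 0 lower in each comparison under TMM. Under germ cell scaling 4 were higher and 4 lower in OE, and 4 and 3 in MU. Pgk2, Tnp2, Prm1 and Prm2 did not pass the filter and stood at no more than 0.18 CPM on average in any group. Of 13 PRC1.6 genes, 9 were higher and 2 lower in OE and in MU under TMM, and 12 were lower under germ cell scaling. That scaling called 67.1% of all genes lower in OE and 62.6% in MU. Mga rose by 0.93 and 0.91 under TMM and was at 0.048 and 0.12 under germ cell scaling, and Max fell by 0.36 and 0.30 under TMM and was at -1.24 and -1.09 under germ cell scaling. The 5 genes of differentiating spermatogonia, Stra8 among them, were all higher in OE and MU under TMM, and 4 and 3 under germ cell scaling, and of 7 genes of undifferentiated spermatogonia 6 were lower in each under TMM and 7 under germ cell scaling. Of the 5, Kit, Sohlh1 and Sohlh2 were also named by the study from these samples, so they are not independent evidence. The study reports them as downregulated in the PRMT5 (E444Q) group. Between MU and OE, 0 of the 5 were called under TMM, with log2 fold changes from -0.101 to -0.000325.

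Set against the promoters shown above, the 9 genes with an E-box had a median log2 fold change of 1.07 in OE and 1.00 in MU under TMM, and the 22 matched genes without it 0.59 in each, all values that germ cell scaling lowers by about the shift given above. For the E2F sequence the medians were 0.67 with it and 0.62 without it in OE, and for the STRA8 sequence 0.96 and 0.64, all under TMM. Sycp2, with the second largest rise in OE and the largest in MU under TMM, has none of the 3 in its window, and Hormad2, with no call, has the STRA8 sequence. These are descriptions of 31 genes and no test was made.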

How the data were processed

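A table of unnormalized counts for 53801 genes in 9 libraries was deposited by the authors. By the study's methods and the submitters' processing notes, reads were trimmed with BBmap and Trimmomatic 0.39, aligned to GRCm38 with HISAT2 2.2.1 and quantified with StringTie 2.2.1. How these became whole numbers, and whether strand was used, is not given in the sources used here. The members and lists were chosen with earlier results of these data known. Every gene of the 37 is named, with all libraries given for the called genes of largest change. Some of the general paralogs, and the ratios of meiotic genes to them, are not reported here and were left out of the counts.

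Counts were tested with edgeR 4.0.16 in R 4.3.3 (filterByExpr by group, minimum count 10 and total 15, TMM, robust quasi-likelihood fit of group over all 9 libraries, Benjamini-Hochberg over 22452 genes, threshold 0.05). The standard error is the size of the log2 fold change divided by the square root of F. Coordinates and exon lengths came from GENCODE vM21, and promoters from RefSeq (GRCm38.p6). A floor of 3 read pairs (12 counts) covers counting error only. Alternatives were another scaling (RLE, upper quartile, germ cell genes), no filter, DESeq2 1.42.0, counts divided by 4, 6 libraries only, a replicate block and leaving out each library. The fit was tested on simulated data drawn from its own means and spread, with few genes changed, in OE alone and in both directions. In that setting estimates were unbiased and false calls few. A shift as broad as that against 4OHT was not simulated, so the choice of scaling was not tested by it. A bar first set for recovery at all levels was not met, since large changes in genes of low counts were often missed, and it was replaced by one for genes of at least 1 CPM, which was met, so a missing call at low counts carries little weight.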

Additional observations from a re-analysis of the deposited data

How the results depend on the processing

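The calls against 4OHT depended most on the scaling. Germ cell scaling left 12 of the 31 genes called higher in OE and 13 in place of 32 in MU, and raised the genes called lower from 1 to 18 and from 1 to 12. A minimum change of 2-fold left 12 and 11 called higher. Of the 32 genes called in OE, 32 were also called with RLE factors, upper-quartile factors, no filter, DESeq2 and counts divided by 4, and 30 with the 6 libraries alone, and of the 33 called in MU, 33 were called under each of these. Leaving out each library in turn kept between 28 and 32 of the 32 in OE and between 31 and 33 of the 33 in MU. The calls lost in edgeR were, in OE, Meiob without 4OHT-2 (adjusted p = 0.0933) or without 4OHT-3 (adjusted p = 0.054) or without OE-2 (adjusted p = 0.108) or without OE-3 (adjusted p = 0.0676), Spata22 without 4OHT-2 (adjusted p = 0.0637) or without 4OHT-3 (adjusted p = 0.0615) or without OE-1 (adjusted p = 0.0704), Msh5 without OE-3 (adjusted p = 0.0696), Rnf212 without OE-3 (adjusted p = 0.0916) and Terb1 without 4OHT-1 (adjusted p = 0.0895) or without 4OHT-3 (adjusted p = 0.11) or without OE-1 (adjusted p = 0.0767) or without OE-3 (adjusted p = 0.0763), and, in MU, Syce3 without 4OHT-2 (adjusted p = 0.0566), Meiob without MU-3 (adjusted p = 0.0524), Ythdc2 without MU-3 (adjusted p = 0.0506) and Terb2 without 4OHT-3 (adjusted p = 0.0615) or without MU-1 (adjusted p = 0.0543). The replicate numbers did not pair the libraries (correlations of same-numbered libraries from -0.0168 to 0.0523), and with a replicate block 32 of 32 and 33 of 33 genes were called, with 1 gene, Spo11, called between MU and OE.

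Between MU and OE, the 1 gene called higher became 0 with RLE factors, upper-quartile factors and counts divided by 4, 2 with germ cell scaling and 2 with the 6 libraries alone, which also gave 1 called lower in place of 0, and leaving out each library gave 0 to 1. The genes called with the 6 libraries alone were Sycp2, Dmc1 and Smc1b, and Spo11 was not called there (adjusted p = 0.0924 in edgeR). All genes called in that comparison were 746, against 1140 with DESeq2, 1796 with the 6 libraries alone and 444 to 1242 on leaving out each library.

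With germ cell scaling the log2 fold change in OE against 4OHT was -0.31 for Syce1, -0.59 for Syce3, -0.77 for Hormad2, -0.35 for Trip13, -0.27 for Rec8, -0.12 for Stag3, -0.26 for Mei1, -0.27 for Rec114, -0.59 for Prdm9, -0.42 for Dmc1, -0.30 for Meiob, -0.21 for Spata22, -0.47 for Psmc3ip, -0.59 for Mnd1, -0.72 for Msh4, -0.49 for Msh5, -0.46 for Mlh3, -0.45 for Rnf212, -0.56 for Ythdc2, -0.0041 for Majin, -0.20 for Terb1 and -0.39 for Terb2. In MU against 4OHT it was -0.20 for Syce1, -0.19 for Syce3, -0.61 for Hormad2, -0.29 for Trip13, -0.22 for Rec8, -0.078 for Stag3, -0.20 for Mei1, -0.28 for Rec114, -0.32 for Prdm9, -0.082 for Dmc1, -0.10 for Meiob, -0.047 for Spata22, -0.44 for Psmc3ip, -0.59 for Mnd1, -0.61 for Msh4, -0.30 for Msh5, -0.41 for Mlh3, -0.22 for Rnf212, -0.53 for Ythdc2, -0.13 for Majin, -0.22 for Terb1 and -0.41 for Terb2. In MU against OE it was 0.016 for Sycp1, 0.040 for Tex12, 0.0083 for Hormad1, 0.057 for Trip13, 0.048 for Rec8, 0.042 for Stag3, 0.061 for Mei1, 0.034 for Psmc3ip, 0.050 for Mlh3, 0.067 for Hfm1, 0.013 for Tex11, 0.0084 for Meioc, 0.035 for Ythdc2 and 0.012 for Brdt. Without the filter, the MU against OE values were 0.0078 for Trip13, 0.012 for Mei1 and 0.018 for Hfm1. On leaving out each library, the MU against OE log2 fold changes ranged from -0.0045 to 0.051 for Syce1, -0.086 to 0.013 for Tex12, -0.10 to 0.00024 for Rec8, -0.051 to 0.0077 for Mei1, -0.032 to 0.25 for Meiob, -0.033 to 0.22 for Spata22, -0.080 to 0.088 for Msh4, -0.075 to 0.0019 for Mlh3, -0.062 to 0.035 for Hfm1, -0.0086 to 0.14 for Ccnb1ip1 and -0.12 to 0.038 for Ythdc2. The cause of these changes was not tested, and depth limits most the genes of lowest level, which were Spo11, Meiob, Terb1 and Majin.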
